A study of Mus musculus with 16 samples.

Results

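The myogenic regulatory factors Myf5, Myod1, Myog and Myf6 and the MEF2 factors Mef2a, Mef2c and Mef2d were followed in muscle stem cells (MuSCs) with and without the telomere-binding protein TRF2. The 7 genes were taken by symbol from the table of estimated counts, which holds 24411 genes, and all 7 were found. The 16 libraries hold RNA of MuSCs from adult mouse hindlimb muscle, with 4 libraries in each of 4 groups, which the series' design text calls biological replicates. Libraries share sample codes whose meaning is not given, within a group, across the times and, at 3 DPI, in replicates 1 and 2 of both genotypes, so p-values measure the spread between these libraries, which may be partly technical. Control mice, labelled wild type, and TRF2 MuSC-cKO mice, labelled TRF2 knockout, were each sampled uninjured and 3 days post-injury (3 DPI), after 10 µl of notexin, a snake toxin that kills myofibers, was injected into the tibialis anterior muscle. The cKO mice carried floxed TRF2 alleles and Pax7-CreERT2, so that recombination depends on tamoxifen and on the Pax7 promoter, which is active in MuSCs. All mice were on a C57BL/6 background and tamoxifen began at 8 to 10 weeks of age. Mice of these groups were 3 months old in expression measurements of this design, and the age at sorting is not stated for these libraries themselves. The tamoxifen treatment of the controls and any Cre or floxed allele they carried are not given in the sources used here. Cells were sorted as CD45-, CD31-, CD11b- and Sca1-negative and positive for α7-integrin and for VCAM or CD34.

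The myogenic regulatory factors are basic helix-loop-helix (bHLH) proteins that pair with E proteins and bind E-boxes, short DNA motifs spelled CANNTG. Myf5 and Myod1 commit cells to the muscle lineage, Myog drives their terminal differentiation, and Myf6 acts late and persists in myofibers. MEF2 proteins are MADS-box factors that bind AT-rich sites, work together with the bHLH factors on muscle genes, and are held inactive by class IIa histone deacetylases, and they are also expressed outside muscle.

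The proximal Myog promoter is a textbook case in which E-boxes and a MEF2 site lie side by side. It is shown here with the same window of Myf5 and of Mef2c, which were called in opposite directions after injury of control muscle. Each line gives the 250 bases before the RefSeq start on the GRCm38.p6 build, 5′ to 3′ on the gene's strand, with E-boxes and MEF2-like matches in capitals.
Myog: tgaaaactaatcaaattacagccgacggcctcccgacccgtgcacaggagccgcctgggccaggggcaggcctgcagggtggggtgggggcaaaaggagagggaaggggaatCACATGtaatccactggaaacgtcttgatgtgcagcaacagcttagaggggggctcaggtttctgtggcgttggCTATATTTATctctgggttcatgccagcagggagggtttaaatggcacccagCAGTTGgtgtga
Myf5: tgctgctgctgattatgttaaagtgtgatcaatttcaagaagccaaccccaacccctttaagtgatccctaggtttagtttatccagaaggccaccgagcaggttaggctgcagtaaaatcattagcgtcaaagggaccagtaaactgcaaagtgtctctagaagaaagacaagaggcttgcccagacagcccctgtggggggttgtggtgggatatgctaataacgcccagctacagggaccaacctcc
Mef2c: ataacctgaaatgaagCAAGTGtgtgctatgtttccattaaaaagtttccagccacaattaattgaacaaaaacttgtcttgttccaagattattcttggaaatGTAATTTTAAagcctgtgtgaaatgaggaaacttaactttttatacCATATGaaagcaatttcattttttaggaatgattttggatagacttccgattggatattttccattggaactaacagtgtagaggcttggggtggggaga
The Myog window, chr1:134289754-134290003 on the plus strand, holds the E-boxes CACATG and CAGTTG, which begin 138 and 12 bases before the start, and CTATATTTAT, which begins 64 bases before it. The Mef2c window shown, chr13:83503784-83504033 on the plus strand, holds 2 E-boxes and 1 MEF2-like match, GTAATTTTAA, and is that of 1 of 3 starts. Of the other Mef2c starts, the second has no such match and the third has 1 E-box. The Myf5 window, chr10:107486135-107486384 on the minus strand, holds none of these letters.

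Both strands were searched. CANNTG was present in 66.2% of 32841 promoter windows of the same length, and 31.8% held it at least 2 times. The full MEF2 consensus was present in 2.92% of the windows and in none of the members' windows. The capitals mark that consensus with its last base left free, a version chosen after the Myog sequence was seen, which is found in 7.03% of the windows. The E-box CAGCTG, a subset of CANNTG found in 13% of the windows, was in none of the members' windows. The promoter table held 5 of the 7 members, Myod1 and Myf6 not among them, with 7 starts, and a match is a description of the letters only.

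On GRCm38, Myf6 (chr10:107492853-107494737) and Myf5 (chr10:107482908-107486134) lie next to each other on the minus strand of chromosome 10, with 6718 bases between them. Myod1 lies at chr7:46376474-46379099 and Myog at chr1:134289989-134292548, both on the plus strand. All 4 bHLH genes have 1 annotated transcript of 3 exons. The MEF2 genes are longer and have more transcripts, 12 for Mef2a (chr7:67231163-67372858, minus strand), 31 for Mef2c (chr13:83504034-83667080, plus strand) and 7 for Mef2d (chr3:88142372-88172086, plus strand). Mef2a overlaps Lysmd4 on the opposite strand and Gm44667 and Gm44668 on its own, and Mef2d overlaps the antisense gene 1700113A16Rik, and the strand setting of the quantification is not given in the sources used here.

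Library totals ran from 620506 to 1351130 estimated counts, and 19996 to 21879 genes had a count in each library except replicate 3 of the 3 DPI libraries with the TRF2 MuSC-cKO label, with 15387. No pair of replicates agreed within sampling noise. The targeted gene Terf2 was at 76.5 ± 12.4 CPM (SD, n = 4) in uninjured control and 45.7 ± 13.3 CPM (SD, n = 4) in uninjured cKO MuSCs, a log2 fold change of -0.62 (adjusted p = 0.199, edgeR). At 3 DPI it was at 43.8 ± 6.16 CPM (SD, n = 4) in controls and 57.8 ± 28.4 CPM (SD, n = 4) in those labelled TRF2 MuSC-cKO, which are therefore named by their label. Levels are given as CPM, a gene's counts scaled to a common library total corrected with the trimmed mean of M-values (TMM), and so are relative to the other RNA of the same library. To be called, a gene had to pass an adjusted p of 0.02 and a 1.5-fold change in edgeR's quasi-likelihood test, with p-values adjusted by Benjamini and Hochberg's method over all genes tested. Myf6 did not pass the filter on low counts in any comparison, so 6 of the 7 members were tested in each.

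Marker genes of the sorted cells differed in level between the groups. The summed level of 11 MuSC marker genes was 4762 to 6967 CPM in uninjured control libraries, 2620 to 3763 CPM in uninjured cKO libraries, 1194 to 1684 CPM in control libraries at 3 DPI and 510.6 to 730.2 CPM in 3 DPI libraries labelled TRF2 MuSC-cKO. The summed level of 14 macrophage and other leukocyte markers went the other way with injury, from 99.9 to 165.3 CPM in control and 156.4 to 220.1 CPM in cKO libraries when uninjured, to 5619 to 7144 CPM and 2258 to 6565 CPM at 3 DPI. Ptprc and Itgam, which encode the CD45 and CD11b that the sort selects against, were at 226.5 and 392.9 CPM in 3 DPI controls against 13.45 and 15.45 CPM in uninjured controls (means, n = 4). The neutrophil and T cell markers S100a8, S100a9 and Cd3e were at 10.4 CPM or less in every 3 DPI library. In bulk libraries such as these, fewer cells of a type and less RNA per cell cannot be told apart.

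**Figure D1:**
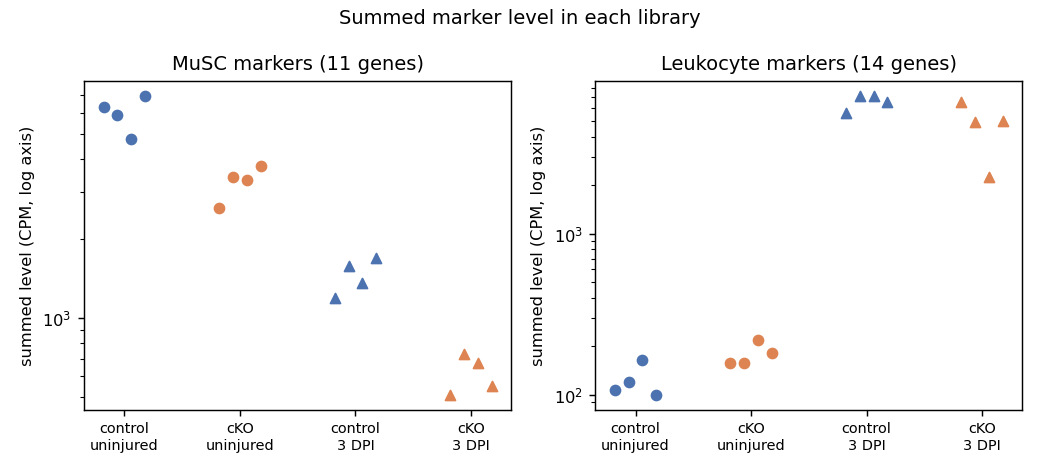
Summed CPM (log axis) of the MuSC markers (left) and of the macrophage and other leukocyte markers (right) in each of the 16 libraries. Circles are uninjured and triangles 3 DPI, blue is control and orange TRF2 MuSC-cKO. The MuSC sum lies lower and the leukocyte sum higher at 3 DPI in both genotypes, and the MuSC sums of the 4 groups do not overlap.

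Compared per transcript length, Myf5 was the most abundant member in uninjured control MuSCs, at 284 ± 46.5 TPM (SD, n = 4), above every other member in every library. Myod1 (131 ± 32.0 TPM), Mef2d (122 ± 9.59 TPM) and Myog (80.1 ± 39.8 TPM) followed and overlapped as neighbours. Mef2a (26.02 ± 3.17 TPM), Myf6 (12.9 ± 9.17 TPM) and Mef2c (12.1 ± 3.42 TPM) were lowest, with Mef2a above Mef2c in every library. TPM is a transcript abundance per length and library, from the deposited table of rescaled counts.

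In uninjured cKO MuSCs Myf5 again led, at 194 ± 63.3 TPM, followed by Mef2d (104 ± 5.68 TPM) and Myod1 (67.9 ± 27.4 TPM), Mef2a (38.7 ± 17.4 TPM), Myog (21.3 ± 14.8 TPM), Mef2c (20.5 ± 3.74 TPM) and Myf6 (11.1 ± 3.88 TPM). In controls at 3 DPI the order was another, with Myog (115 ± 26.9 TPM), Myod1 (104 ± 31.7 TPM), Mef2d (89.5 ± 18.0 TPM) and Mef2a (86.9 ± 15.2 TPM) at the top and overlapping. Myf5 (46.2 ± 7.46 TPM) lay below all of these and above Mef2c (26.4 ± 3.10 TPM), without overlap on either side. At 3 DPI, in libraries labelled TRF2 MuSC-cKO, the members from Mef2a (68.2 ± 35.3 TPM) to Myf6 (21.0 ± 22.7 TPM) overlapped at every step.

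Before injury the commitment factors and Myog, but not the MEF2 genes, were the members with the largest differences between genotypes. Myf5 was at 284, 269, 179 and 311 CPM in control replicates 1 to 4 and at 101.8, 106, 147 and 211 CPM in cKO replicates 1 to 4. The groups overlapped through control replicate 3 and cKO replicate 4. The log2 fold change was -0.76 (SE 0.22) with an adjusted p of 0.0266, above the threshold. Myf5 was called with no filter (adjusted p = 0.00705), with at least 10 counts in every library (adjusted p = 0.0184), with the replicate number as a block (adjusted p = 0.00985), when control replicate 3 was left out (adjusted p = 0.00539) or cKO replicate 4 (adjusted p = 0.00482), and its adjusted p over all alternatives ran from 0.00482 to 0.205.

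Myod1, the other commitment factor, was at 119.7, 90.04, 123 and 83.95 CPM in the control libraries and at 63.9, 42.6, 34.4 and 31.3 CPM in the cKO libraries. Every cKO library lay below every control library. Myod1 fell by 1.14 on the log2 scale (SE 0.27, adjusted p = 0.00528), from a mean of 104.2 to a mean of 43.0 CPM.

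Myog was at 74.2, 30.6, 66.3 and 29.0 CPM in the control libraries and at 14.2, 18.7, 8.59 and 1.36 CPM in the cKO libraries. The cKO libraries again lay below all controls, with replicate 4 the lowest and, among controls, replicates 1 and 3 above replicates 2 and 4. The cKO levels came from 12, 18, 6 and 1 counts. The level of cKO replicate 4 lay below the 4.086 CPM that 3 counts make up in that library. Myog fell by 2.04 on the log2 scale (SE 0.44, adjusted p = 0.00252), the largest difference among the members tested. Thus 2 of 6 tested members were called lower in uninjured cKO MuSCs, against 2.63% of all 14048 genes tested, and 3 of 6 lay lower without overlap, against 9.18% of genes. Without the TMM correction of library size, the split of all calls moved from 82 higher and 370 lower to 176 higher and 212 lower, and Myog alone among the members was called.

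Without control replicate 1 neither Myod1 (adjusted p = 0.027) nor Myog (adjusted p = 0.0295) was called, and without cKO replicate 3 or 4 Myod1 was not (adjusted p = 0.0253 and 0.0272). Over all alternatives the adjusted p ran from 0.000689 to 0.0849 for Myod1 and from 3.41e-05 to 0.122 for Myog, and both genes were lower under each of them. The names of uninjured samples begin with codes that no control and cKO library share, so the code and the genotype cannot be told apart here. Markers of the sorted cells moved with these differences. The MuSC sum was lower in cKO libraries without overlap and 6 of 11 MuSC markers were called lower, and the summed level of 8 fibro-adipogenic progenitor markers was 1012 to 2013 CPM in cKO against 4476 to 6980 CPM in control libraries. Col3a1 made up most of the latter sum (means of 5313 CPM in control and 1114 CPM in cKO), while Pdgfra, the defining marker of those cells, was at 34.6 and 67.5 CPM, and of 6 such markers tested 1 was called higher and 2 lower. Of 8 smooth muscle and pericyte markers 2 were called higher in cKO, Rgs5 (log2 fold change 1.33, adjusted p = 0.0144) and Cspg4 (0.88, adjusted p = 0.0172). The list went both ways, with 4 of the 8 above 0 and a median of 0.14. Its summed level was 1984 to 2813 CPM in cKO and 2414 to 3450 CPM in control libraries. The part of any of these markers in the result was not tested.

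Set against the MuSC markers of the same library, a comparison chosen after the values were seen, Myf5 was 4.33% ± 0.382 (SD, n = 4) of the MuSC sum in control and 4.24% ± 1.06 (SD, n = 4) in cKO MuSCs. Myod1 was 1.81% ± 0.593 and 1.38% ± 0.723, and Myog 0.876% ± 0.481 and 0.345% ± 0.246 (SD, n = 4). The ranges of the genotypes overlapped for these 3 genes on this scale, and for Mef2a and Mef2d. The MuSC sum includes Cdh15, Itga7, Des, Musk and Chrna1, which are also listed as differentiation targets of these factors, so the scale is not independent of them. Mef2c was 0.586% ± 0.145 in control and 1.45% ± 0.295 in cKO MuSCs (SD, n = 4), higher in cKO without overlap. In CPM Mef2c overlapped between the genotypes, and the MuSC sum it is set against was lower in cKO libraries.

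**Figure D2:**
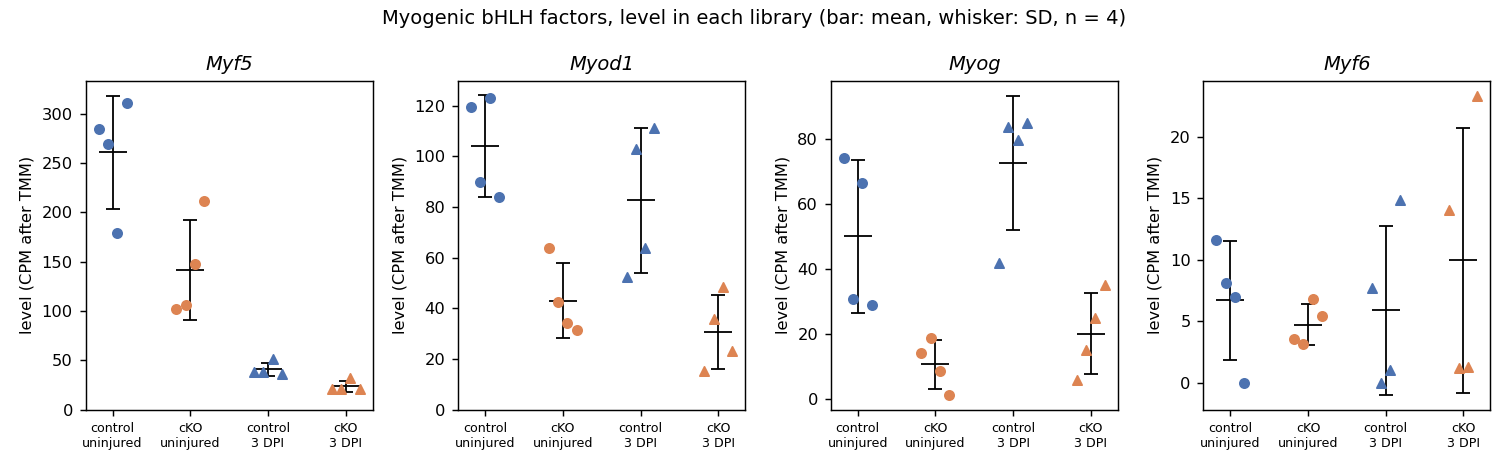
Level in CPM (linear axes, 1 panel per gene) of Myf5, Myod1, Myog and Myf6 in each library, with replicates 1 to 4 from left to right within a group. Points are libraries, the horizontal bar is the group mean and the whisker the SD (n = 4). Myf5 lies between 20.8 and 51.1 CPM in all 3 DPI libraries and at 101.8 CPM or more in all uninjured libraries, and Myod1 and Myog lie lower in libraries labelled cKO than in controls at both times.

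Myf6 was close to the detection floor. It was at 11.6, 8.10, 6.98 and 0 CPM in uninjured control replicates 1 to 4, where a count of 0 allows up to 2.925 CPM (3 counts), and at 3.55, 3.12, 6.76 and 5.45 CPM in the uninjured cKO libraries. At 3 DPI it was at 7.72, 0, 0.984 and 14.8 CPM in controls, where a count of 0 allows up to 2.917 CPM, and at 14.02, 1.15, 1.24 and 23.3 CPM in libraries labelled TRF2 MuSC-cKO. All groups overlapped, and no difference in Myf6 was detectable at this depth.

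None of the 3 MEF2 genes was called between genotypes in uninjured MuSCs by edgeR, limma or DESeq2, and Mef2d alone had an unadjusted p under 0.05 (0.0484). Mef2d was at 139, 132, 128 and 127 CPM in control and at 85.2, 94.5, 93.0 and 85.8 CPM in cKO libraries. Every cKO library lay below every control library, with a log2 fold change of -0.43 (SE 0.21, adjusted p = 0.254). Mef2a was at 57.9 to 72.4 CPM in control and 46.3 to 116.8 CPM in cKO libraries, and the control values lay inside the cKO range. Its log2 fold change was 0.37 (95% interval -0.16 to 0.91, adjusted p = 0.455), and 0.056 without cKO replicate 1. Mef2c was at 23.2 to 49.1 CPM in control and 40.2 to 62.3 CPM in cKO libraries, with a log2 fold change of 0.55 (95% interval -0.081 to 1.18, adjusted p = 0.33).

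**Figure D3:**
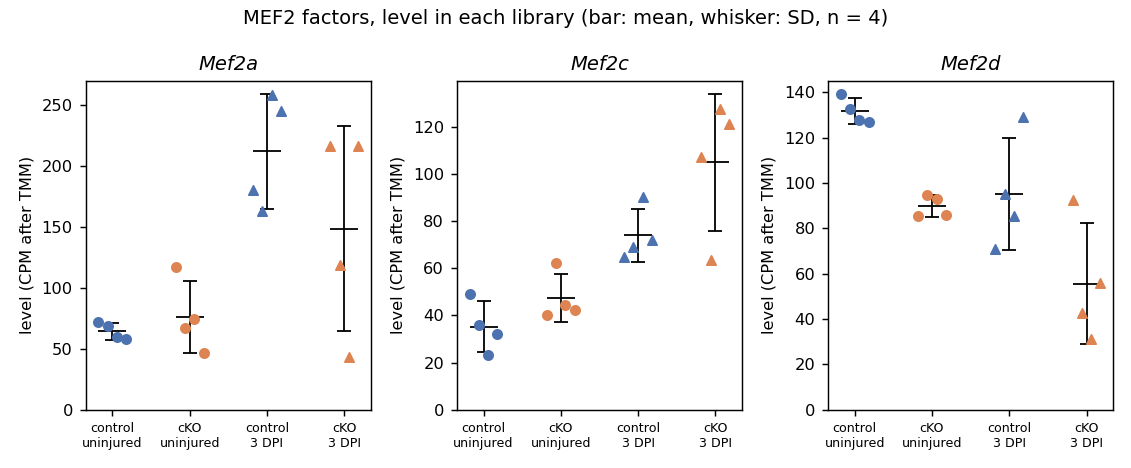
Level in CPM (linear axes, 1 panel per gene) of Mef2a, Mef2c and Mef2d in each library, with replicates 1 to 4 from left to right within a group. Points are libraries, the horizontal bar is the group mean and the whisker the SD (n = 4). Mef2a and Mef2c lie higher in every 3 DPI control than in every uninjured control, and replicate 3 of the 3 DPI libraries with the TRF2 MuSC-cKO label is the lowest of its group for Mef2a (43.4 CPM) and Mef2d (31.0 CPM) and the highest for Mef2c (127.7 CPM).

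Injury of control muscle was accompanied by a fall of Myf5, the largest change of any member there. From a mean of 260.9 CPM in uninjured control libraries it reached 38.6, 37.9, 51.1 and 36.2 CPM at 3 DPI, and the groups did not overlap. Myf5 fell by 2.62 on the log2 scale (SE 0.22, adjusted p = 3.7e-13), or 6.16-fold, and it was called in each of the 10 alternatives and with any library left out.

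Neither Myod1 nor Myog was called with injury of control muscle. Myod1 was at 52.5, 103, 63.9 and 111 CPM at 3 DPI, with 2 of the 4 uninjured control libraries above that range, and its log2 fold change was -0.28 (95% interval -0.75 to 0.20, adjusted p = 0.465). With the sample code as a block the fold change of Myod1 turned to 0.16 (adjusted p = 0.882, with 0.236 to 0.882 over all alternatives). Myog was at 41.7, 83.6, 79.7 and 84.8 CPM at 3 DPI, and 3 of these 4 libraries lay above every uninjured control. Its log2 fold change was 0.59 (95% interval 0.0099 to 1.17) and its adjusted p 0.145. With the sample code as a block it was 1.58, and its adjusted p over all alternatives ran from 0.0395 to 0.653. Only uninjured control replicate 4 shares its sample code with 3 DPI controls. The fold changes with the code as a block therefore rest on it.

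Mef2a and Mef2c rose after injury of control muscle. Mef2a went from 57.9 to 72.4 CPM to 180.7, 163, 259 and 245 CPM, a log2 fold change of 1.76 (SE 0.21, adjusted p = 5.1e-09). Mef2c went from 23.2 to 49.1 CPM to 64.9, 69.0, 90.3 and 71.8 CPM, a log2 fold change of 1.11 (SE 0.27, adjusted p = 0.00119). The 3 DPI libraries lay above all uninjured libraries for both genes. Mef2d, at 71.0, 95.3, 85.6 and 129 CPM, overlapped the uninjured libraries and was not called (log2 fold change -0.41, SE 0.21, adjusted p = 0.165).

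In all, 2 of 6 tested members were called higher and 1 lower with injury of control muscle, against 10.8% of 15356 genes called higher and 9.46% called lower. Without that correction the split of all calls moved from 1652 higher and 1452 lower to 1989 higher and 1066 lower, and the same 3 members were called. Mef2c lost its call in 3 of 10 alternatives, with an adjusted p of 0.0534 with the sample code as a block and a range of 0.000127 to 0.0534 over all alternatives. The leukocyte markers moved with the rise of Mef2a and Mef2c, 11 of the 11 tested being called higher with a median log2 fold change of 5.34, and the MuSC markers moved with the fall of Myf5, 10 of 11 being called lower with a median of -1.92. Of 8 fibro-adipogenic progenitor markers 4 were called higher and 2 lower (median 1.52), and of 8 smooth muscle and pericyte markers 3 were called lower (median -0.71). The median over all genes was 0.066, and the part of these markers in the result was not tested.

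Against the MuSC sum of the same library, Myf5 was 2.89% ± 0.742 (SD, n = 4) in 3 DPI controls, where it had been 4.33% ± 0.382 in uninjured controls, and the ranges overlapped at 3.76%. Myod1 was 5.57% ± 1.18 of the MuSC sum at 3 DPI against 1.81% ± 0.593 in uninjured controls, and Myog 4.93% ± 1.02 against 0.876% ± 0.481 (SD, n = 4). The ranges did not overlap for Myod1 and Myog. Mef2a was 14.8% ± 3.53 of the MuSC sum against 1.10% ± 0.183. The MuSC list itself contains genes that fall after injury, such as Pax7, at 1217 CPM in uninjured and 152 CPM in 3 DPI controls (means, n = 4).

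**Figure D4:**
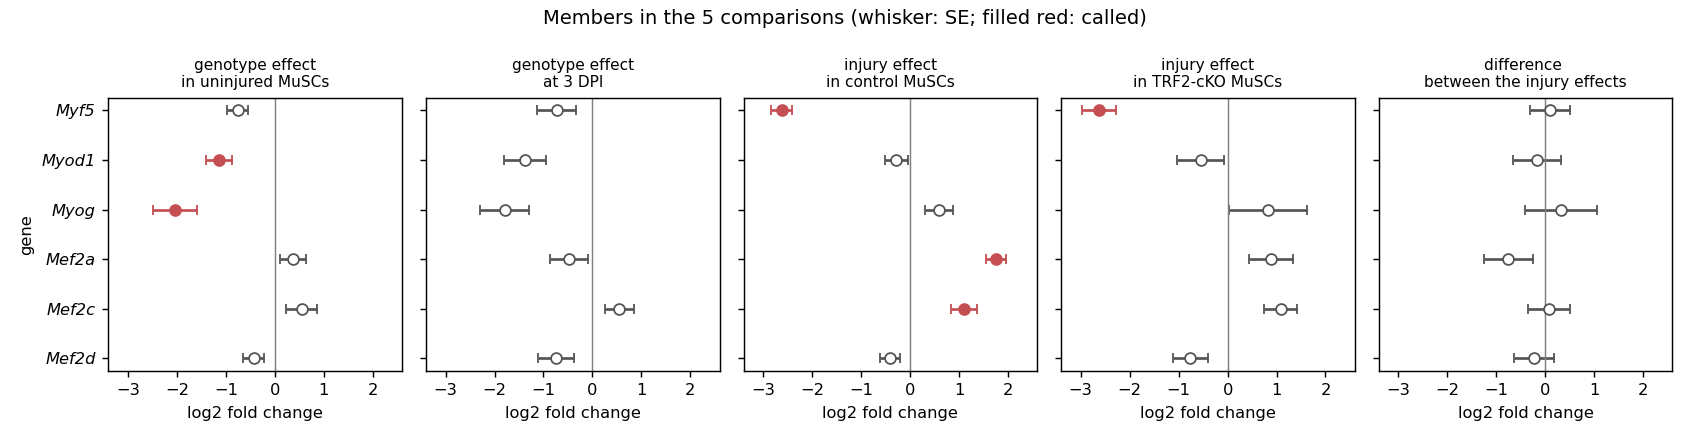
Log2 fold change of the 6 tested members in the 5 comparisons, 1 panel per comparison. Points are the fitted values, whiskers the SE, and filled red points the members called. The Myf5 injury effect lies near -2.6 in both genotypes, and in the panel of the difference between the injury effects every whisker crosses 0 except that of Mef2a (-0.75, SE 0.50).

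In libraries labelled TRF2 MuSC-cKO, Myf5 was the only member called with injury. It went from 101.8 to 211 CPM in uninjured cKO libraries to 21.0, 20.8, 32.2 and 21.0 CPM at 3 DPI, without overlap. Myf5 fell by 2.63 on the log2 scale (SE 0.36, adjusted p = 0.000347). It was called in 9 of 10 alternatives and with any library left out, and missed the threshold with the sample code as a block (log2 fold change -3.02, adjusted p = 0.0347, with 1.32e-09 to 0.0347 over all alternatives). It was 1 of 6 tested members called lower, against 1.61% of 14578 genes.

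The other bHLH factors were not called. Myod1 was at 15.2, 35.8, 48.4 and 23.3 CPM at 3 DPI after 31.3 to 63.9 CPM in uninjured cKO libraries, with a log2 fold change of -0.55 (95% interval -1.59 to 0.49, adjusted p = 0.67) that turned to 0.16 with the sample code as a block (adjusted p = 0.97, with 0.268 to 0.97 over all alternatives). Myog was at 5.84, 14.99, 24.8 and 35.0 CPM after 1.36 to 18.7 CPM, with a log2 fold change of 0.82 whose 95% interval ran from -0.90 to 2.54 (adjusted p = 0.709). With the sample code as a block it was 4.27 (adjusted p = 0.361, with 0.361 to 0.926 over all alternatives). The groups overlapped for both genes. Only uninjured cKO replicate 4 shares its sample code with 3 DPI libraries of that label. The fold changes with the code as a block therefore rest on it, at 1.36 CPM for Myog.

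Mef2c was at 107.3, 63.4, 127.7 and 121 CPM in 3 DPI libraries labelled TRF2 MuSC-cKO, each above the 40.2 to 62.3 CPM of the uninjured cKO libraries. It was 1 of 6 tested members higher without overlap, against 6.92% of genes. Its log2 fold change was 1.08 (SE 0.33) and its adjusted p 0.0797, and it was called in 3 of 10 alternatives, with 0.00811 to 0.389 over all of them. Mef2a was at 216, 118.8, 43.4 and 217 CPM, a spread from below all uninjured cKO libraries to above them, with a log2 fold change of 0.89 (SE 0.44, adjusted p = 0.354). Without replicate 3, the library with the fewest genes detected and the lowest leukocyte sum at 3 DPI (2258 CPM), Mef2a was called at 1.23 (adjusted p = 0.00429, with 0.00429 to 0.69 over all alternatives). Mef2d, at 92.4, 42.7, 31.0 and 55.9 CPM after 85.2 to 94.5 CPM, had a log2 fold change of -0.76 (SE 0.36, adjusted p = 0.306).

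Here too the sorted cells' markers moved with the members. Of 11 leukocyte markers tested 10 were called higher, with a median log2 fold change of 4.44, and 8 of 11 MuSC markers were called lower, with a median of -2.0, against 0.0071 over all genes. Their part in the result was not tested. Relative to the MuSC sum, Myf5 was 3.89% ± 0.806 (SD, n = 4) in these 3 DPI libraries and 4.24% ± 1.06 in uninjured cKO libraries. Myod1 was 4.82% ± 1.76 against 1.38% ± 0.723, and Myog 3.30% ± 2.28 against 0.345% ± 0.246 (SD, n = 4), without overlap for either gene. Between these groups the mean MuSC sum itself went from 3293 CPM when uninjured to 616.6 CPM. Mean CPM went from 43.05 to 30.65 for Myod1 and from 10.71 to 20.14 for Myog.

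At 3 DPI the levels of Myf5, Myod1 and Myog in the libraries labelled TRF2 MuSC-cKO all lay below those of the controls. Myf5 was at 20.8 to 32.2 CPM against 36.2 to 51.1 CPM, with a log2 fold change of -0.73 (SE 0.41, adjusted p = 0.59). Myod1 was at 15.2 to 48.4 CPM against 52.5 to 111 CPM, with a log2 fold change of -1.38 (SE 0.43, adjusted p = 0.452). Myog was at 5.84 to 35.0 CPM against 41.7 to 84.8 CPM, with a log2 fold change of -1.79 (SE 0.50, adjusted p = 0.452). Thus 3 of 6 tested members lay lower without overlap, against 4.88% of genes that did so.

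No member was called at 3 DPI by edgeR, limma or DESeq2. Of 14559 genes, 0 (0%) were called by edgeR, 28 by limma and 6 by DESeq2. At an unadjusted p under 0.05, edgeR counted 1362 genes (9.36%), and Myod1 and Myog were among them. Without replicate 3 of the libraries labelled TRF2 MuSC-cKO, edgeR called 16 genes, 3 higher and 13 lower, and no member. The biological coefficient of variation was 0.495 in this comparison and 0.297 in uninjured MuSCs. Mef2a (log2 fold change -0.48, SE 0.39), Mef2c (0.55, SE 0.29) and Mef2d (-0.74, SE 0.36) overlapped between genotypes, with adjusted p-values of 0.72, 0.575 and 0.539. Over all alternatives Mef2a ran from -0.73 to -0.022, Mef2c from 0.37 to 0.71 and Mef2d from -1.11 to -0.29, and none was called. The MuSC sum was lower without overlap in libraries labelled TRF2 MuSC-cKO, and on its scale Myf5 was 3.89% ± 0.806 there and 2.89% ± 0.742 in controls, Myod1 4.82% ± 1.76 and 5.57% ± 1.18, and Myog 3.30% ± 2.28 and 4.93% ± 1.02 (SD, n = 4), these 3 with overlapping ranges. Mef2c was 17.7% ± 6.11 and 5.19% ± 1.10 in the same order, without overlap, while Mef2a and Mef2d overlapped. Leukocyte markers lay lower as well, 0 of 11 tested having a log2 fold change above 0. Their median was -0.52, against 0.0014 over all genes, and 0 were called. The part of the MuSC and leukocyte markers in the result was not tested.

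Whether the injury response of the factors depended on genotype was tested as an interaction over all 16 libraries, and no member was called. The difference between the injury effects, cKO minus control, was 0.099 for Myf5 (95% interval -0.75 to 0.95), -0.17 for Myod1 (-1.19 to 0.85) and 0.32 for Myog (-1.17 to 1.82) on the log2 scale. For the MEF2 genes it was -0.75 for Mef2a (-1.78 to 0.27), 0.076 for Mef2c (-0.82 to 0.98) and -0.23 for Mef2d (-1.06 to 0.60). Adjusted p-values were 0.94 or above for all 6. Of all 16822 genes, edgeR called 3 (0.0178%), limma 123 and DESeq2 15, and edgeR gave 966 (5.74%) an unadjusted p under 0.05, no member among them. With 1 library left out edgeR called 1 to 13, the 13 without replicate 3 of the 3 DPI libraries labelled TRF2 MuSC-cKO. The intervals reach beyond a 1.5-fold difference in both directions for Myf5, Myod1, Myog, Mef2c and Mef2d, so these data do not show that the responses were alike.

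Within the bHLH family the share of Myf5 was lower at 3 DPI than in uninjured MuSCs. Myf5 made up 56.6% ± 12.0 (SD, n = 4) of the family's TPM in uninjured control and 64.9% ± 13.9 in uninjured cKO MuSCs, but 17.4% ± 5.41 in controls at 3 DPI and 23.9% ± 6.16 in 3 DPI libraries labelled TRF2 MuSC-cKO. Myog made up 15.4% ± 6.54, 7.78% ± 5.84, 41.4% ± 5.53 and 25.5% ± 10.2 in the same order of groups. Myod1 made up 25.6% ± 4.99, 23.5% ± 9.71, 37.0% ± 5.63 and 33.8% ± 14.1. The shares of Myf5 at 3 DPI lay below those of all uninjured libraries, at most 29.8% against at least 42.1%. The shares of Myog at 3 DPI lay above all uninjured shares in controls but overlapped them in libraries labelled cKO, and those of Myod1 overlapped between the times under both labels. The share of Myf6 was 2.44% ± 1.66, 3.77% ± 1.21, 4.18% ± 4.43 and 16.8% ± 17.2 in the same order, from at most 20 counts in a library.

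The log2 ratio of Myod1 to Myf5 counts within a library carries the same shift without any scaling between libraries. It was -1.31 ± 0.58 (SD, n = 4) in uninjured controls and 0.95 ± 0.66 in controls at 3 DPI, without overlap. In libraries labelled cKO it was -1.69 ± 0.90 uninjured and 0.26 ± 0.54 at 3 DPI, again without overlap. The ratio of Myog to Myf5 went from -2.47 ± 0.94 to 0.77 ± 0.51 in controls and from -3.99 ± 1.92 to -0.46 ± 1.01 in libraries labelled cKO. At each time the genotypes overlapped in both ratios. Such ratios show unequal change, not which gene changed.

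In the MEF2 family the mean share of Mef2d was highest in uninjured controls, and those of Mef2a and Mef2c were lowest there. As with the ratios above, shares show unequal change, not which gene changed, and the part of the leukocyte markers was not tested. Mef2d itself was not called in any comparison. Mef2d made up 76.3% ± 2.22 (SD, n = 4) of the family's TPM in uninjured control, 64.3% ± 5.79 in uninjured cKO, 44.1% ± 6.22 in control 3 DPI and 34.2% ± 5.25 in 3 DPI libraries labelled cKO. Mef2a made up 16.2% ± 0.694, 23.1% ± 7.33, 42.8% ± 5.0 and 38.2% ± 12.8 in the same order, and Mef2c 7.54% ± 1.77, 12.7% ± 2.45, 13.1% ± 1.96 and 27.7% ± 14.4. Counts divided by annotated length, in place of the deposited rescaling, put Mef2d at 58.8%, 44.4%, 26.1% and 18.8%. The order of groups held for Mef2d and Mef2a. For Mef2c it did not, with 20.1% in uninjured cKO and 17.6% in control 3 DPI. The order of genes within a group at 3 DPI did not hold either. In uninjured MuSCs the log2 ratio of Mef2c to Mef2d counts was -1.94 ± 0.38 in control and -0.93 ± 0.23 in cKO libraries (SD, n = 4), without overlap.

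**Figure D5:**
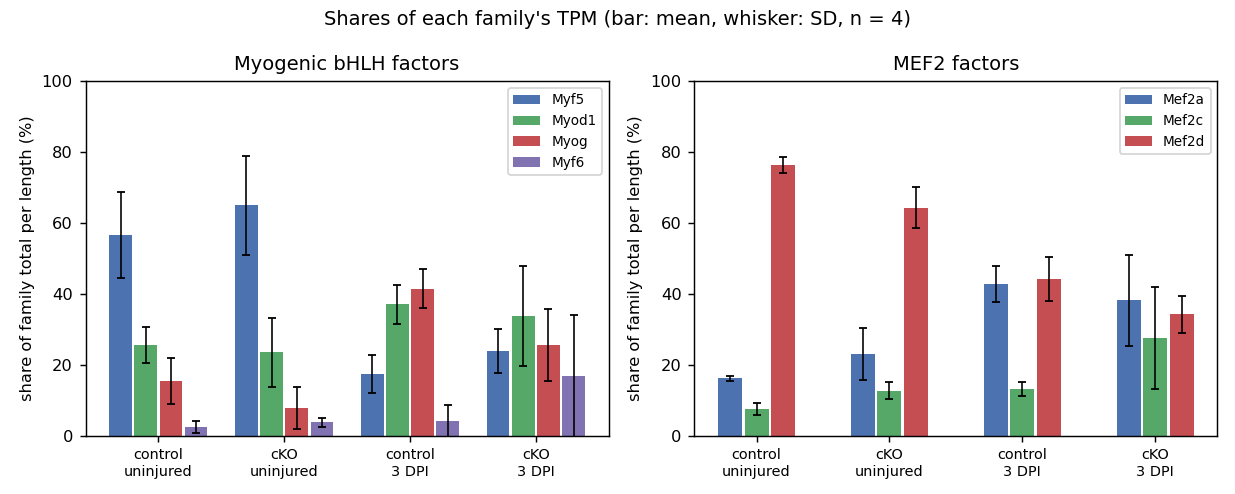
Share of each gene in the summed TPM of its family (percent, axis from 0 to 100), bHLH factors left and MEF2 factors right, for the 4 groups. Bars are means and whiskers SD (n = 4). Myf5 leads the bHLH family in uninjured groups (56.6% and 64.9%) but not at 3 DPI, and the Mef2d share is lower in each group from left to right (76.3%, 64.3%, 44.1% and 34.2%).

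The partners and regulators of the bHLH factors were read from fixed lists, beside 2.63% of all genes called lower in uninjured cKO MuSCs, 9.46% called lower with injury of controls and 1.61% called lower with injury in libraries labelled cKO. Of the 3 E proteins, the dimer partners, Tcf4 fell in uninjured cKO MuSCs (log2 fold change -0.73, SE 0.19) and with injury of controls (-1.39, SE 0.19), and Tcf3 and Tcf12 were not called in any comparison. The uninjured call of Tcf4 was lost with limma, and also without control replicate 1, 2 or 4 or cKO replicate 1, 2 or 3. Among upstream factors, which act on the promoters or enhancers of the bHLH genes, 0 of 18 were called between genotypes in uninjured MuSCs by edgeR, limma or DESeq2, with 3 at an unadjusted p under 0.05. With injury of controls 8 of 17 fell, with a list median of -0.67. Among them were Pax7 (-2.95, SE 0.21), Six2 (-2.09), Foxo3 (-1.48), Eya4 (-1.46), Eya1 (-1.41) and Kmt2a (-0.92). In libraries labelled cKO 4 of 18 fell with injury, among them Pax7 (-3.21, SE 0.41), Foxo3 (-1.93) and Kmt2a (-1.19), a count that was 2 without uninjured cKO replicate 1, 2 or 3 or 3 DPI replicate 1, 2 or 4.

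Inhibitors of bHLH factors act in several ways, some by competing for E proteins or E-boxes and others, such as Mdfic, by binding the myogenic factors themselves. Of 17 tested in uninjured MuSCs, 5 had a log2 fold change above 0 and 3 fell in cKO, namely Heyl (log2 fold change -0.997, SE 0.19), a Notch effector, Msc (-1.44, SE 0.32), which encodes musculin, and Mdfic (-0.81, SE 0.20). That number was 1 with limma, with all 16 libraries in 1 fit and without cKO replicate 3, 2 without the TMM correction, and 0 with the rescaled table. With injury of controls 9 of 18 fell, among them Heyl (-2.61), Hes1 (-2.31), Msc (-1.97), Id3 (-1.71), Hey1 (-1.67), Id1 (-1.60), Zeb1 (-1.43), Snai2 (-1.24) and Mdfic (-0.81). Id2, which binds E proteins without binding DNA, rose (1.35, SE 0.29). In libraries labelled cKO Id2 rose with injury as well (2.10, SE 0.47, beside 2.43% of all genes called higher) and Heyl (-2.29) and Id3 (-1.86) fell, out of 16 tested. Medians over all genes were between 0.0071 and 0.066 in these comparisons.

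Of 9 MEF2 repressors, 0 were called between genotypes in uninjured MuSCs by edgeR, limma or DESeq2, with 2 at an unadjusted p under 0.05. With injury of controls 2 of the 9 fell, beside 9.46% of all genes, among them the class IIa deacetylase Hdac4 (-1.78, SE 0.22). Hdac9, another class IIa deacetylase, was the 1 that rose (1.39, SE 0.28), beside 10.8% of all genes. In libraries labelled cKO 1 of 9 fell with injury, beside 1.61% of all genes. That count was 0 to 2 over the alternatives. Of 24 coactivators and activating kinases, 11 fell with injury of controls. The number called was 2 to 11 in the other settings and 9 to 12 with 1 library left out. Those that fell were led by the cell-surface receptor Cdon (-2.59, SE 0.20), the TEAD cofactor Vgll3 (-1.53) and Boc (-1.31), a receptor related to Cdon. Cdon (-1.16, SE 0.19) and Vgll3 (-0.90, SE 0.24) also fell in uninjured cKO MuSCs, a count of 2 that was 1 without control replicate 1, 2 or 3 or cKO replicate 1, 3 or 4 and 0 with the rescaled table or all 16 libraries in 1 fit. In libraries labelled cKO Cdon (-2.48), Boc (-1.65) and Crebbp (-0.99) fell with injury.

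Differentiation targets of the bHLH and MEF2 factors moved in both directions. Of 30 tested in uninjured MuSCs, 3 were called higher and 4 lower in cKO, beside 0.584% and 2.63% of all genes, with a list median of -0.10. The 3 of smallest p were Cdkn1a (log2 fold change 2.37, SE 0.20), a cell cycle inhibitor that is also a p53 target, Itga7 (-1.21, SE 0.20), which encodes the α7-integrin of the sort, and Neb (1.11, SE 0.22), which encodes the sarcomere protein nebulin. With injury of controls 4 of 40 rose and 9 fell, with a list median of 0.21, and the 3 of smallest p were the acetylcholine receptor subunit Chrnb1 (-2.54), the cadherin Cdh15 (-1.73) and the small heat shock protein Cryab (-1.94). The 4 that rose were Ttn (1.05), Tnnt2 (2.04), Tnni2 (2.04) and Ckm (1.49), a share of the list near the 10.8% of all genes called higher. In libraries labelled cKO 5 of 33 fell with injury, led by Cdkn1a (-1.89, SE 0.23), Chrnb1 (-3.38) and Des (-2.01). Of the 113 tested entries of the 6 lists, edgeR called the injury effect of 1, Cdkn1a, different between genotypes, against 2 called by limma and 1 by DESeq2 (edgeR log2 difference -2.40, SE 0.32, adjusted p = 0.000944). At 3 DPI 0 of the 103 tested entries of these lists were called between genotypes by edgeR or limma and 2 by DESeq2, with 14 at an unadjusted p under 0.05 by edgeR. Without replicate 3 of the libraries labelled TRF2 MuSC-cKO, 3 differentiation targets were called there by edgeR, and the number of bHLH inhibitors called with injury in libraries labelled cKO was 9 in place of 3, while it was 1 without uninjured cKO replicate 1 or 4 or 3 DPI replicate 1. The differentiation targets called there numbered 3 in place of 5 without uninjured cKO replicate 2, 3 or 4 or 3 DPI replicate 1 or 4, and the coactivators 1 in place of 3 without uninjured cKO replicate 2, 3 or 4 or 3 DPI replicate 2. The 16 calls on the 6 lists with injury in libraries labelled cKO went to 0 with the sample code as a block. That fit takes the injury effect from uninjured cKO replicate 4 alone among the uninjured libraries. Cdh15, Itga7, Des, Musk, Chrna1 and Pax7 are also on the MuSC marker list, which lay lower in the same comparisons.

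The genes with the pattern most like each member's over the 16 libraries were found by the root mean square difference of centred log2 CPM among 7054 or 7055 other genes whose mean log2 CPM was 5 or more. Nearest to Myf5 were Lama2, Dtx4 and Ltbp4 (0.298 to 0.311, beside a spread of Myf5 itself of 1.36). Nearest to Myod1 were Rbm24, Iqsec3 and Men1 (0.371 to 0.466, beside 0.828). Nearest to Mef2a were Sptlc2, Fmn1 and Rgl1 (0.324 to 0.364, beside 0.856), to Mef2c Apobr, Sp110 and Chd3 (0.292 to 0.301, beside 0.656), and to Mef2d Hspa8, Fkbp4 and Nsd1 (0.213 to 0.22, beside 0.571). No gene came as close to Myog, for which Eif5a, H3f3a and Mest were nearest at 0.811 to 0.858 beside a spread of 1.31. Myog had as few as 1 count in a library of uninjured cKO MuSCs, and the part of counting noise in this distance was not tested. These are descriptions of likeness over libraries that share group differences.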

How the data were processed

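RNA sequencing libraries of sorted MuSCs were made with the CORALL kit, which depletes ribosomal RNA, primes at random sites and keeps the strand. Per the submitters' processing notes, reads were processed with Trim Galore 0.6.7, STAR 2.6.1d and Salmon 1.5.2 on GRCm38. The kit builds unique molecular identifiers into the libraries, and whether the read processing used them is not given in the sources used here. The authors deposited estimated counts per gene, not normalized, and a second table of estimated counts rescaled by transcript abundance, from which TPM and family shares were computed.

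The estimated counts were rounded. Each comparison used its own 8 libraries in edgeR 4.0.16 (R 4.3.3), with filterByExpr, TMM factors and the quasi-likelihood test in its robust form. Calls required an adjusted p (Benjamini-Hochberg) under 0.02 and a fold change over 1.5. The SE is the log2 fold change divided by the square root of the test statistic. The interaction used all 16 libraries. Alternatives were limma 3.58.1, DESeq2 1.42.0, other scalings and filters, the rescaled table, 1 fit of all libraries, 2 blocks and leaving out each library. The procedure was tested on simulated counts. The members, the gene lists, the tests and the rule for named genes were chosen with earlier results of these data known. The named genes are all members, Terf2, the called genes of the E protein, upstream and inhibitor lists, the 3 of smallest p in the other lists (some genes of these lists are not reported here), and the 3 most similar patterns; cell marker genes, the 4 targets that rose and Crebbp were named after their values were seen. Of 24411 symbols, 23376 (95.76%) matched GENCODE M21, the source of positions, and promoter sequences are from RefSeq on GRCm38.p6. All columns were used.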

Additional observations from a re-analysis of the deposited data

Results flagged for a closer look

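Among 28 combinations of member and group, 3 held a library that stood apart from the other 3 of its group by Dixon's criterion, which chance alone meets in about 1 of 20 such groups. Myf5 in 3 DPI controls was at 51.1 CPM in replicate 3 and at 36.2 to 38.6 CPM in the others. Myf5 in 3 DPI libraries labelled TRF2 MuSC-cKO was at 32.2 CPM in replicate 3, the library with the fewest genes detected, and at 20.8 to 21.0 CPM in the others. Myog in 3 DPI controls was at 41.7 CPM in replicate 1, the library with the smallest total, and at 79.7 to 84.8 CPM in the others.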

How the results depend on the processing

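In uninjured MuSCs the number of members called, 2, was 0 with limma, with the rescaled table and with all 16 libraries in 1 fit, 1 with library size alone, 3 with no filter and with the replicate block, and 0 to 3 with 1 library left out. Injury in libraries labelled cKO gave 1 member called, 2 with limma, with at least 10 counts in every library and with all 16 libraries in 1 fit, 0 with the sample code as a block, and 1 to 2 with 1 library left out. At 3 DPI and in the interaction the number stayed 0 in all alternatives run, and in injured controls it was 2 to 3. The log2 fold change of Myod1 turned to 0.16 in both injury effects with the sample code as a block. In the interaction, library size alone and no filter turned Myf5 to -0.047 and -0.038 and Mef2c to -0.066 and -0.056. With 1 library left out, the interaction ran from -0.19 to 0.25 for Myf5, -0.61 to 0.087 for Myod1 and -0.16 to 0.74 for Myog. It ran from -1.05 to -0.46 for Mef2a, -0.15 to 0.24 for Mef2c and -0.59 to -0.15 for Mef2d. None of the 6 was called. The cause of these changes was not tested.

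Replicate numbers gave no sign of pairing, as same-numbered libraries correlated between -0.11 and 0.111 in their deviations. Such correlations cannot show that libraries were unpaired, and some libraries of both genotypes share a code at 3 DPI. The replicate block gave 536 genes called in uninjured MuSCs, where the fit without it gave 452, and called Myf5 in addition (log2 fold change -0.79, adjusted p = 0.00985), and 364 against 589 in injured libraries labelled cKO. The sample-code block could not be fitted between uninjured genotypes and was not run for the interaction. In each injury effect it rests on uninjured replicate 4, the only uninjured library of that genotype whose code recurs at 3 DPI. Over all alternatives the number of all genes called ran from 17 (rescaled table) to 595 in uninjured MuSCs, 1485 to 3344 in injured controls and 37 (sample-code block) to 1316 (without cKO 3 DPI replicate 3) in injured libraries labelled cKO. On the 6 lists the rescaled table left 1 call in uninjured MuSCs. With injury of controls, calls over the other settings ran from 6 to 11 for bHLH inhibitors and 7 to 15 for differentiation targets. Library size alone moved the median of all genes in uninjured MuSCs from 0.058 to 0.244. Myog had no value with at least 10 counts in every library in 4 of the 5 comparisons. Shares per length moved by more than the SD in 10 of 28 cases with annotated lengths. Counts of 0 to 20 make Myf6 the member most limited by depth.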
